A study of Drosophila melanogaster with 24 samples.

Results

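The step from the end of the third larval instar (L3) to 2 h after puparium formation (APF) was described from 8 of the 24 NimbleGen expression arrays of a time course of Drosophila wing metamorphosis, 4 arrays of each stage. The 8 arrays were taken by their titles, L3 1 to 4 and 2 h APF B to E, and every transcript on the array, 15473 in all, was compared between the stages. All samples came from w1118;+;+ flies, a white-eyed laboratory strain, and each held the RNA of 10 dissected wings collected independently of the other samples. The L3 tissue was taken from wandering larvae and the 2 h APF tissue from animals that had just formed the puparium, and at both stages the dissected tissue contained the presumptive notum. A stage field of the labels gave 24 h for the 4 arrays of 2 h APF, whereas their titles and descriptions gave 2 h, and the titles were used. The remaining 16 arrays, of 6, 18, 24 and 36 h APF, entered the comparison only through the estimate of the spread and the mean brightness of a transcript, with 1 array of pooled 36 h RNA left out, and a few later levels are given beside those of 2 h APF.

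Puparium formation is set off by a pulse of the steroid hormone ecdysone at the end of larval life. The hormone binds a nuclear receptor that turns on a small set of transcription factors, and these in turn switch sets of later genes on and off. In the wing imaginal disc the columnar epithelium of the larva begins to turn itself inside out at this time, a movement known as eversion or evagination, in which cells change shape, the extracellular matrix is remodelled and the pouch starts to extend into the future blade.

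The value of a transcript was its RMA intensity, a summary of 3 to 5 probes, on the log2 scale, on which a difference of 1 is a 2-fold change. Values ran from 4.07 to 15.97. The brightness of a spot depends on its probes as well as on the amount of RNA, so a transcript was compared only with itself in the other stage. A limma fit with 1 mean per stage gave each transcript a p-value, and a change was called where that p-value, adjusted by Benjamini and Hochberg over the whole array, was under 0.05. The identifiers in the files are those of FlyBase transcripts, and a Release 6 gene table tied 44 of them to gene names, 17 to a single gene and 27 to several genes that are reading frames of 1 transcript. Marker genes of the wing, of the notum and of other tissues were not among these names, so the labelled tissue was not checked against its markers here.

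By 2 h APF 3312 transcripts (21.4%) differed from L3, 1685 of them higher (10.9%) and 1627 lower (10.5%). In a sample of whole tissue, fewer cells of a type and less RNA per cell cannot be told apart. The counts of rises and falls were near each other, but the rises were larger. The median rise was 1.79-fold and the median fall 1.64-fold, and the upper quartile was 2.53-fold for rises and 2.12-fold for falls. Over 2-fold there were 673 rises and 472 falls, and rises were then 58.8% of the changes. Over 4-fold there were 214 rises and 85 falls (71.6% rises), over 8-fold 79 and 29 (73.1%), over 16-fold 34 and 9 (79.1%), and over 32-fold 14 and 2 (87.5%). The median log2 change of all transcripts was -0.04. Under cyclic loess rises and falls were also near each other in number, with 1734 and 1720. Array medians ran from 9.28 to 9.45 on the log2 scale at L3 and from 9.37 to 9.55 at 2 h APF. With array medians centred on a common value the median of all transcripts moved by -0.07 and 1374 rose while 1949 fell (41.3% rises against 50.9%).

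**Figure D1:**
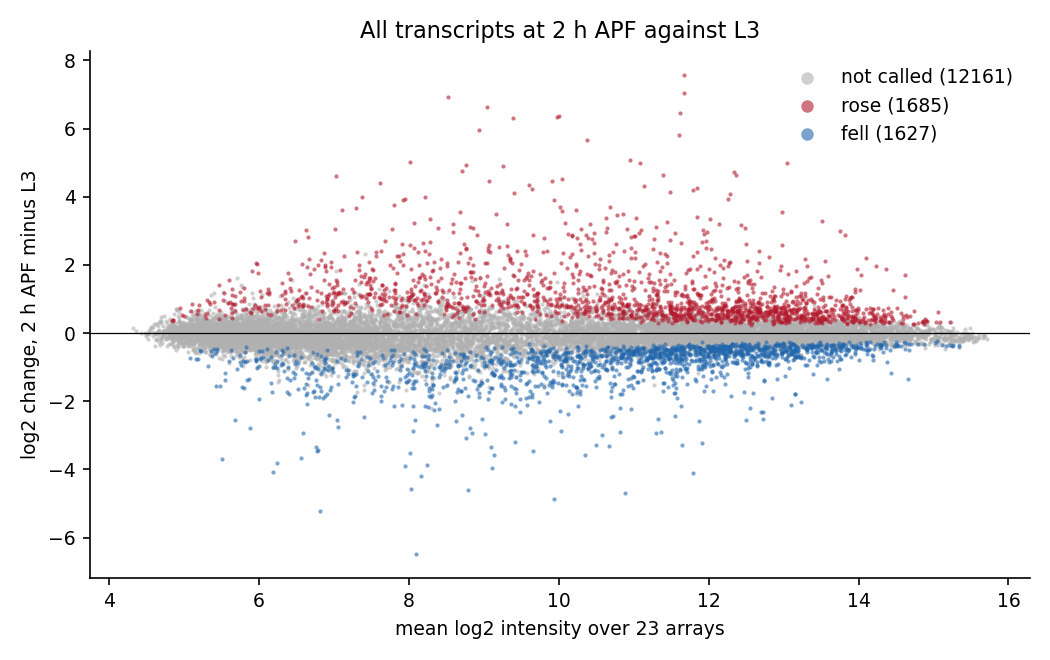
Each point is 1 of the 15473 transcripts, with its mean log2 intensity over the 23 arrays of the fit on the horizontal axis and its log2 change from L3 to 2 h APF on the vertical axis. The 1685 transcripts that rose reach changes above 7, the 1627 that fell reach below -6, and the gray points did not pass the limma test.

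**Figure D2:**
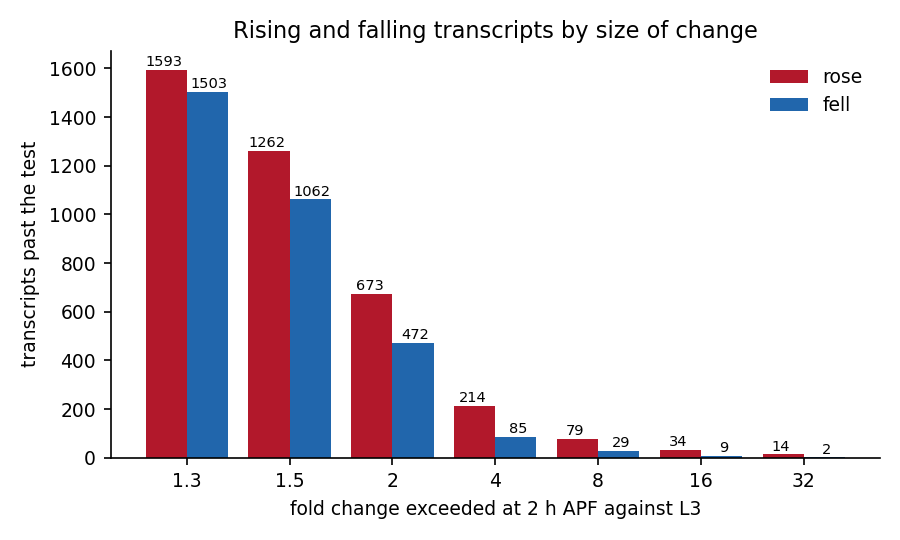
Bars give the number of transcripts past the limma test that changed by more than the fold on the horizontal axis, rising or falling. The bars differ little at 1.3-fold, with 1593 rises and 1503 falls, and stand at 79 and 29 at 8-fold.

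The large changes were mostly between a dim and a bright state. Of the 79 transcripts that rose over 8-fold, 70 lay under 9.46 at L3, which is the middle log2 value of the whole series, and the median of the 79 went from 6.99 at L3 to 11.6 at 2 h APF. Of the 29 that fell over 8-fold, 28 had a 2 h APF mean under 9.46, and their median went from 10.8 to 6.90. The 4 arrays of one stage did not overlap the 4 of the other for any of these transcripts. Over 4-fold, 167 of the 214 rises started under 9.46 and 69 of the 85 falls ended there. The files hold no detection call, so it is not known which of the dim ends were above background, and folds that start or end there are uncertain in size.

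FBtr0075842 and FBtr0080109 had the largest rises of all transcripts. FBtr0075842 read 6.30, 6.83, 6.85 and 6.72 in L3 arrays 1 to 4 and 14.26, 14.42, 14.81 and 13.53 in 2 h APF arrays B to E. FBtr0080109 read 6.85, 6.49, 6.48 and 6.35 at L3 and 13.52, 14.27, 14.12 and 12.44 at 2 h APF. In both, every 2 h APF array was far above every L3 array and array E was the lowest of its stage. FBtr0075842 rose by 7.58 on the log2 scale (standard error 0.62, 95% limits 6.30 to 8.87, adjusted p = 1.8e-08 from limma) and FBtr0080109 by 7.05 (standard error 0.29, limits 6.44 to 7.65, adjusted p = 7.2e-13). In the limma fit of the 8 arrays alone, which takes the spread from these 2 stages, the adjusted p was 1.2e-07 and 9.1e-07.

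FBtr0073254 and FBtr0083461 had the largest falls. FBtr0073254 read 13.34, 13.46, 13.60 and 13.13 at L3 and 6.78, 7.0, 7.03 and 6.80 at 2 h APF. FBtr0083461 read 10.46, 10.93, 10.97 and 10.54 at L3 and 5.39, 6.09, 5.38 and 5.10 at 2 h APF. The 2 stages lay apart in all 8 arrays of each. FBtr0073254 fell by 6.48 (standard error 0.40, limits -7.32 to -5.64, adjusted p = 3.2e-10 from limma) and FBtr0083461 fell by 5.23 (standard error 0.35, limits -5.96 to -4.51, adjusted p = 8.5e-10). In the limma fit of the 8 arrays alone the adjusted p was 7.2e-09 and 3.3e-07. The gene table gives no name for any of the 4.

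Levels of these 4 at the later stages differed in course. At 6 h APF the mean of FBtr0080109 was 15.55 ± 0.03 (SD, n = 4), followed by 9.81 ± 0.24 (SD, n = 4) at 18 h APF, and by 36 h APF it was 14.84 ± 0.27 (SD, n = 3). That of FBtr0075842 was 14.0 ± 0.63 (SD, n = 4), 9.94 ± 0.13 (SD, n = 4) and 14.74 ± 0.11 (SD, n = 3) at the same times. At 24 h APF the mean of FBtr0080109 was 10.48 ± 0.47 (SD, n = 4). That of FBtr0075842 was 11.15 ± 2.05 (SD, n = 4), with arrays from 8.12 to 12.65. The means of both were thus high at 2, 6 and 36 h APF and lower between, with a wide spread for FBtr0075842 at 24 h APF. The mean of FBtr0073254 stayed from 6.33 to 7.36 at all later stages and that of FBtr0083461 from 6.00 to 6.39. From 18 h APF on the tissue held no presumptive notum, so these levels include any difference between the tissues.

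**Figure D3:**
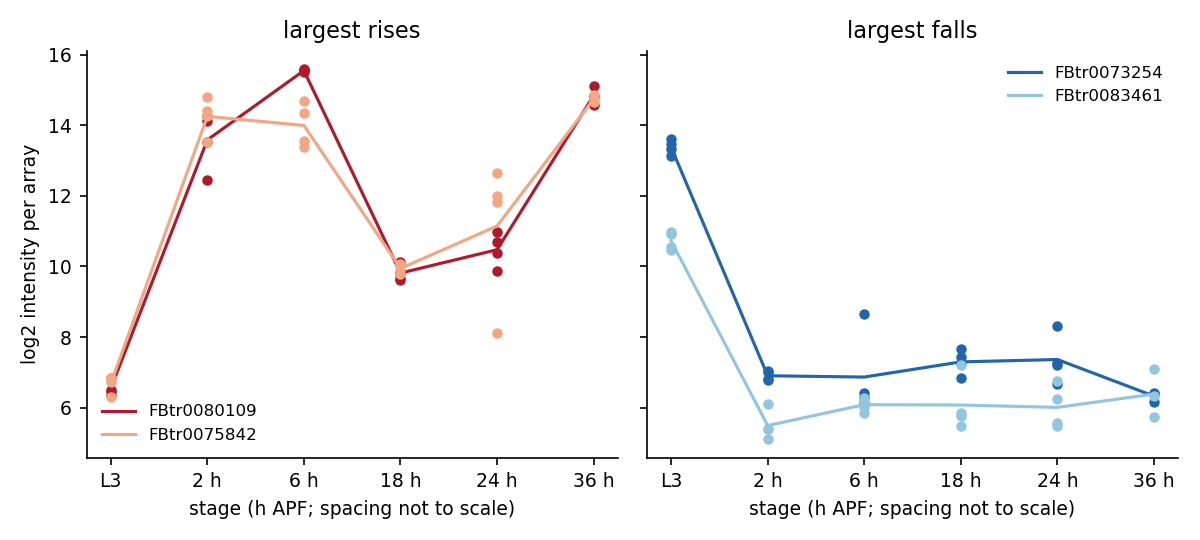
Points give the log2 intensity of each array at the 6 stages and lines join the stage means, for the 2 largest rises (left) and the 2 largest falls (right) between L3 and 2 h APF. The rising pair goes from under 7 at L3 to over 12 in every 2 h APF array, and the falling pair from over 10 to 7.03 or less.

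A change was called far more often among bright transcripts than among dim ones. In 4 bins of equal size by the mean log2 value over the 23 arrays, 200 of the 3869 transcripts of the dimmest bin were called (5.17%), 691 of the bin above it (17.9%), 1254 of the next (32.4%) and 1167 of the brightest (30.2%). Called changes in the brightest bin were the smallest, with a median rise of 1.54-fold and a median fall of 1.42-fold, and those of the bin above the dimmest were the largest, with 2.32-fold and 2.19-fold. Rises over 4-fold numbered 7, 83, 97 and 27 from the dimmest to the brightest bin, and falls over 4-fold 8, 39, 31 and 7. The median SD between arrays was 0.233, 0.212, 0.120 and 0.0987 from the dimmest to the brightest bin at L3, and 0.290, 0.315, 0.217 and 0.159 at 2 h APF. At 2 h APF it was thus largest in the bin above the dimmest, which also held the largest called changes. When only the 8 arrays of the 2 stages were fitted, 366 of the dimmest bin were called in place of 200.

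A further 12161 transcripts (78.6%) were not called. For 9640 of them (62.3% of the array) the 95% limits of the change lay within 2-fold in either direction, and for 5005 within 1.5-fold. All 4 arrays of 2 h APF lay beyond the 4 of L3 for 4970 transcripts (32.1%), above them for 2376 (15.4%) and below them for 2594 (16.8%), and 3129 of the 3312 called transcripts were among these. The remaining 183 called transcripts had arrays that overlapped. At an unadjusted p under 0.05 the limma fit gave 4934 transcripts.

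Samples of 2 h APF varied more among themselves than those of L3. The median SD over transcripts was 0.237 at 2 h APF and 0.151 at L3, and the SD was the larger at 2 h APF for 11182 transcripts (72.3%). Arrays correlated across transcripts at 0.992 to 0.998 within L3, at 0.985 to 0.991 within 2 h APF and at 0.962 to 0.977 between the stages. Transcripts are not independent replicates, and these correlations are descriptions only. Array 1 stood somewhat apart in L3, where 258 transcripts differed over 2-fold from what the other L3 arrays gave on average, against 4 to 29 for the other three. The same number was 161 for 2 h APF array B, 309 for C, 317 for D and 378 for E.

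Transcripts called without an array were then read on that array. The change on it was taken against the mean of the other stage, which had also entered the calls. Agreement in direction was thus favoured in advance, and the shares are descriptions only. The called direction was found for at least 99.5% of them on each L3 array, for 97.5% on 2 h APF array B, 98.6% on C, 98.7% on D and 99.1% on E. The size differed more than the direction did. The change of each transcript on the array was divided by its change in the fit without that array. The median of these ratios over rises was 0.843 on array B, 1.17 on C, 1.06 on D and 0.753 on E. Over falls it was 0.747, 0.905, 1.13 and 0.928. For rises over 4-fold in the fit without the array, the median log2 change was 2.20 on array E against 2.79 in the other arrays, and 2.43 on array B against 2.68. On arrays C and D it was 3.19 and 3.13, against 2.73 and 2.66. Arrays B and E thus carried smaller rises than C and D. For falls over 4-fold the 4 arrays had medians from -2.95 to -2.62.

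The slide was the batch that the files name. The 8 arrays lay on 6 slides, and 2 slides held both stages, 1 with L3 array 1 and 2 h APF array D and 1 with L3 array 3 and 2 h APF array B. L3 array 3 was placed on the slide that lacked an array, since the slide number of its file was cut short. Of 2195 transcripts called without the arrays of the first slide, 98.3% moved in the called direction on it, against 75.6% of all transcripts given the sign of their own change. For the second slide it was 97.3% of 2645, against 71.4%. The median rise of the called transcripts was 1.15 on the log2 scale on the first slide, where the remaining arrays gave 1.0. It was 0.84 on the second, where they gave 1.02, and the median fall there was -0.64 against -0.80. With slide as a block in the fit 2911 transcripts were called.

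Of the 44 transcripts tied to gene names 17 passed the test, 5 upward and 12 downward. That is 38.6% of them, where 21.4% of all transcripts passed. These transcripts were bright, with 22 in the brightest bin, 16 in the next and 6 below, and in the 2 brighter bins 30.2% and 32.4% of all transcripts passed. Of the 17 with a single gene 3 rose and 4 fell, and of the 27 with several reading frames 2 rose and 8 fell. A value of the latter belongs to the transcript and cannot be divided between its reading frames. The median log2 change of the 44 was -0.09. Among the 27 that did not pass, 25 had 95% limits within 2-fold in either direction. Leaving out 2 h APF array D left 10 of the 44 called, L3 array 2 or 3 left 11 each and 2 h APF array C left 12. The order by role that follows was chosen with the values known.

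**Figure D4:**
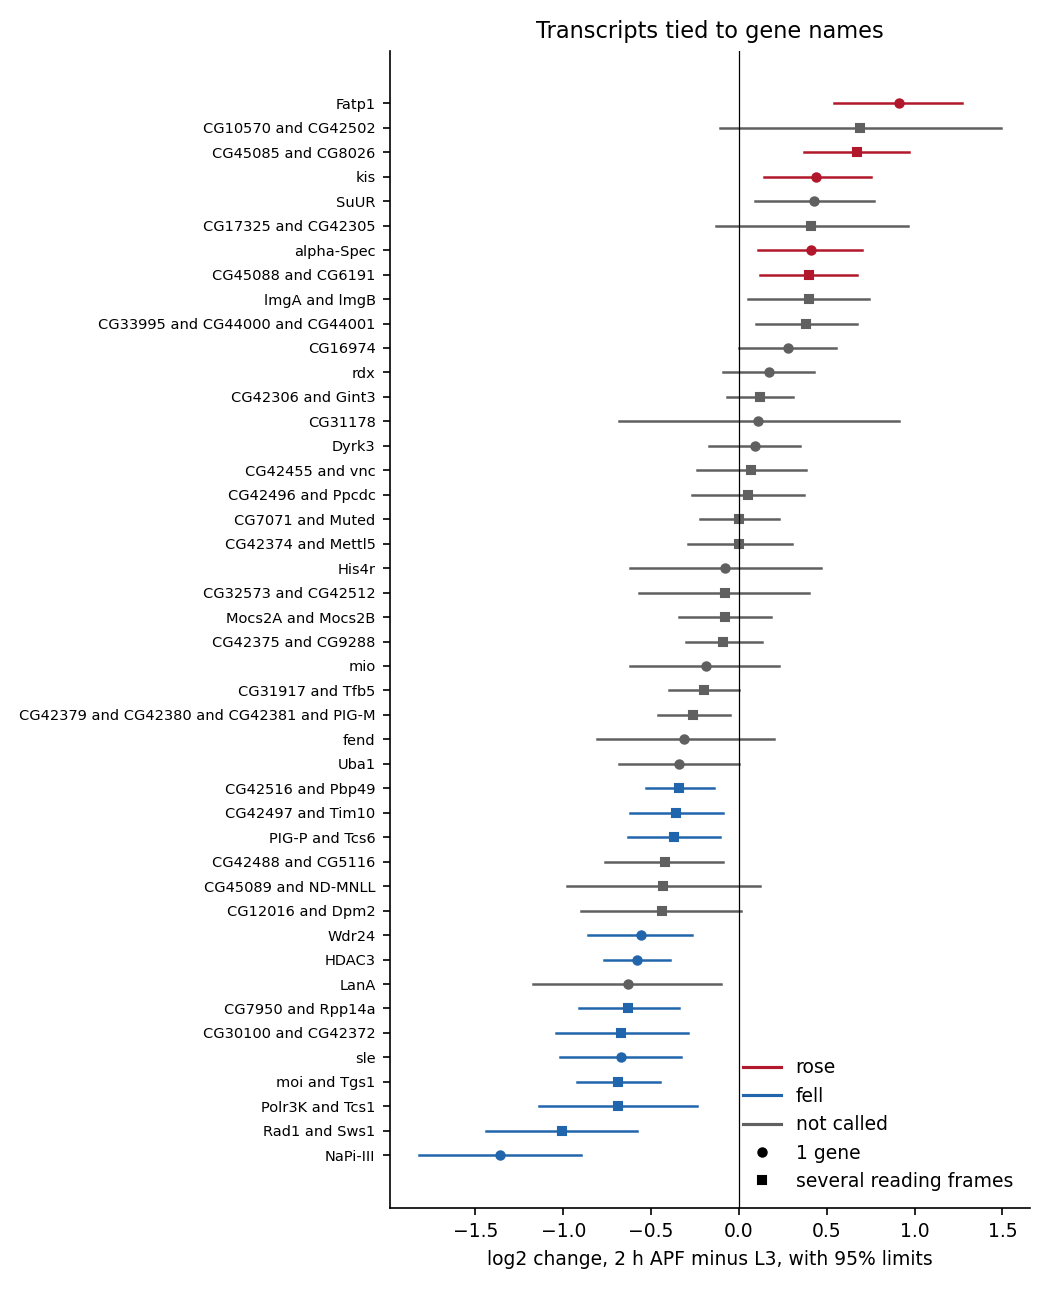
Log2 changes from L3 to 2 h APF of the 44 transcripts tied to gene names, with their 95% limits from limma, sorted by size. Fatp1 is at the top with 0.91 and NaPi-III at the bottom with -1.36.

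NaPi-III had the largest fall and Fatp1 the largest rise among the single-gene transcripts. They were set together as transport genes with these values known, so no result about transport genes as a set is drawn. NaPi-III, a sodium-dependent phosphate cotransporter, read 11.99, 12.04, 12 and 12 in L3 arrays 1 to 4 and 10.67, 10.48, 10.62 and 10.82 in 2 h APF arrays B to E. The stages were separated by more than 1 log2 unit, with a spread of 0.02 (SD, n = 4) at L3 and 0.14 (SD, n = 4) at 2 h APF. NaPi-III fell by 1.36, or 2.57-fold (95% limits -1.82 to -0.90, adjusted p = 0.00011 from limma), and the differences on the 2 slides were -1.38 and -1.33. Fatp1, a fatty acid transport protein, read 10.82, 10.75, 10.87 and 11.03 at L3 and 11.55, 12.16, 12.13 and 11.27 at 2 h APF. All 2 h APF arrays were above all L3 arrays, with B and E lower than C and D. It rose by 0.91, or 1.88-fold (limits 0.54 to 1.27, adjusted p = 0.00062). In the limma fit of the 8 arrays alone the adjusted p was 0.0073 for Fatp1 and 1.3e-05 for NaPi-III. The transcript of CG45085 and CG8026, the second a predicted mitochondrial carrier protein, read 10.41, 10.54, 10.65 and 10.34 at L3 and 11.20, 11.24, 11.20 and 10.99 at 2 h APF, without overlap. It rose by 0.67, or 1.59-fold (limits 0.37 to 0.97, adjusted p = 0.0019).

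**Figure D5:**
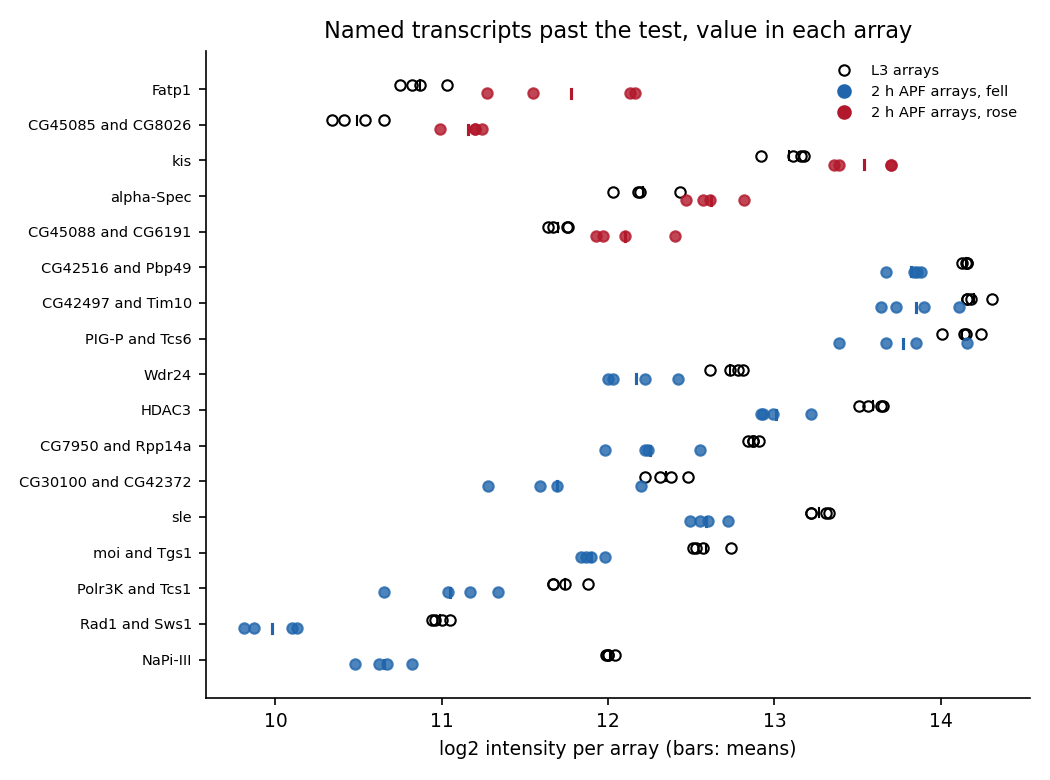
Log2 intensity of the 17 named transcripts that passed the test in each of the 4 L3 arrays (open circles) and the 4 arrays of 2 h APF (filled circles), with bars at the stage means. The stages overlap only for PIG-P and Tcs6.

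Of 8 named transcripts with a gene that acts on RNA or its synthesis, 6 fell and those of Mettl5 (log2 change 0.00) and Tfb5 (-0.20) did not pass. Among all 44 named transcripts 12 fell, and 10.5% of the whole array did. The group was formed with the values known, and some transcripts entered it through only 1 of their reading frames. No result about RNA genes as a set is drawn from it. The transcript of sle, a nucleolar protein, read 13.33, 13.31, 13.22 and 13.22 at L3 and 12.49, 12.72, 12.55 and 12.60 at 2 h APF. It fell by 0.67, or 1.59-fold (limits -1.02 to -0.33, adjusted p = 0.0051 from limma), with -0.77 and -0.72 on the 2 slides. The transcript of moi, which protects telomeres, and Tgs1, which trimethylates the caps of small nuclear RNAs, read 12.57, 12.74, 12.53 and 12.51 at L3 and 11.90, 11.87, 11.98 and 11.84 at 2 h APF. It fell by 0.69, or 1.61-fold (limits -0.92 to -0.45, adjusted p = 0.00011). Neither of these transcripts overlapped between the stages. The transcript of CG7950 and Rpp14a, a subunit of the tRNA-processing enzyme RNase P as known from human, read 12.84, 12.87, 12.87 and 12.91 at L3 and 12.55, 11.98, 12.22 and 12.24 at 2 h APF. It fell by 0.63, or 1.54-fold (limits -0.91 to -0.34, adjusted p = 0.0017), and array B, the least changed, was still 0.32 under the L3 array of its slide.

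Other transcripts of this kind had calls that were lost in at least 1 alternative fit. The transcript of Polr3K, a subunit of RNA polymerase III, and Tcs1, which takes part in the t6A modification of tRNA, had 11.67 to 11.88 in the L3 arrays and 10.65 to 11.34 by 2 h APF. It fell by 0.69, or 1.62-fold (limits -1.14 to -0.24, adjusted p = 0.026 from limma), and did not pass without 2 h APF array D or E (adjusted p = 0.10 and 0.051) or without L3 array 2 or 3 (adjusted p = 0.054 and 0.073). That of CG42516 and Pbp49, a subunit of the factor that binds small nuclear RNA promoters, had 14.13 to 14.16 in the L3 arrays and 13.67 to 13.88 by 2 h APF. It fell by 0.34, or 1.26-fold (limits -0.53 to -0.14, adjusted p = 0.012, but 0.051 without 2 h APF array D). In both, every 2 h APF array was below every L3 array. The transcript of PIG-P, which takes part in making GPI anchors, and Tcs6, another t6A factor, read 14.01 to 14.24 at L3 and 14.16, 13.39, 13.67 and 13.85 at 2 h APF, so that array B lay among the L3 arrays and 0.02 above that of its slide. Its log2 change was -0.37 (limits -0.63 to -0.11, adjusted p = 0.040). The call was lost in the fit of the 8 arrays alone (adjusted p = 0.12), with slide as a block (0.11), without 2 h APF array C, D or E (0.17, 0.11 and 0.051) and without L3 array 2, 3 or 4 (0.11, 0.082 and 0.076).

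Among transcripts grouped for chromatin and genome maintenance, HDAC3 and that of Rad1 fell, kis rose, and SuUR and His4r did not pass. Of all transcripts 21.4% passed, and of the named ones 38.6%. The group was formed with the values known, and the transcript of moi, which fell, is given above with the RNA genes. No result about the group as a set is drawn. HDAC3, a histone deacetylase, read 13.51, 13.56, 13.64 and 13.65 at L3 and 13.22, 12.93, 12.99 and 12.92 at 2 h APF. It fell by 0.58, or 1.49-fold (limits -0.77 to -0.39, adjusted p = 8.3e-05 from limma). The transcript of Rad1, part of the ring-shaped clamp of the DNA damage checkpoint, and Sws1 read 11, 10.94, 10.96 and 11.05 at L3 and 10.13, 10.10, 9.81 and 9.87 at 2 h APF. It fell by 1.01, or 2.02-fold (limits -1.44 to -0.58, adjusted p = 0.0012), and neither it nor HDAC3 overlapped between the stages. In the limma fit of the 8 arrays alone the adjusted p was 0.0029 for HDAC3 and 0.00012 for the Rad1 transcript. The transcript of kis, a chromatin remodeller of the CHD family, read 13.18, 12.92, 13.11 and 13.16 at L3 and 13.36, 13.70, 13.70 and 13.39 at 2 h APF, again without overlap. It rose by 0.44, or 1.36-fold (limits 0.14 to 0.75, adjusted p = 0.035). That call was lost with slide as a block (adjusted p = 0.13), with position as a block (0.053), with array medians centred (0.077), without 2 h APF array C or D (0.10 and 0.11) and without L3 array 2, 3 or 4 (0.11, 0.067 and 0.053). SuUR, which hinders replication of late-replicating DNA in polytene cells, had a log2 change of 0.43 (limits 0.09 to 0.77) that did not pass (adjusted p = 0.066), although its arrays did not overlap. His4r, a replacement histone H4, stood at 9.47 ± 0.33 and 9.39 ± 0.36 (SD, n = 4), with limits of -0.62 to 0.47.

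Of the pair of genes that act in the GATOR2 complex of the TORC1 nutrient pathway, Wdr24 fell and mio did not pass. Wdr24 read 12.78, 12.73, 12.81 and 12.61 at L3 and 12, 12.42, 12.03 and 12.22 at 2 h APF, without overlap. It fell by 0.56, or 1.48-fold (limits -0.86 to -0.27, adjusted p = 0.0064 from limma), with differences of -0.74 and -0.81 on the 2 slides. The values of mio overlapped, from 10.07 to 10.44 among L3 arrays and from 9.87 to 10.24 among those of 2 h APF, with a log2 change of -0.19 (limits -0.62 to 0.23, adjusted p = 0.58). The difference between these 2 changes was not tested.

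For the cell skeleton and the matrix, alpha-Spec, which builds the spectrin mesh under the cell membrane, read 12.18, 12.19, 12.03 and 12.43 at L3 and 12.47, 12.82, 12.61 and 12.57 at 2 h APF. Its stages did not overlap, by 0.04 at the nearest arrays, and it rose by 0.41, or 1.33-fold (limits 0.11 to 0.70, adjusted p = 0.043 from limma). This call was lost with the pooled array (adjusted p = 0.053), with slide or position as a block (0.17 and 0.064), with array medians centred (0.11), without 2 h APF array C, D or E (0.13, 0.081 and 0.065) and without L3 array 1, 2 or 3 (0.090, 0.088 and 0.13). LanA, the alpha chain of the basement membrane protein laminin, read 12.93, 12.98, 13.09 and 12.99 at L3 and 12.17, 12.60, 12.27 and 12.42 at 2 h APF. Every 2 h APF array was lower than every L3 array, by 0.66 and 0.91 within the slides. The log2 change of LanA was -0.63 (limits -1.17 to -0.10), and it did not pass over the 23 arrays (adjusted p = 0.089). It passed in the fit of the 8 arrays alone (adjusted p = 0.0030), with slide as a block (0.013) and, just under the threshold, with dim transcripts left out (0.050). The SD of LanA between arrays was 0.07, 0.19, 0.18, 0.26, 0.75 and 0.42 from L3 to 36 h APF. All 6 stages entered the spread in the fit of the 23 arrays.

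For mitochondria, membrane anchors and glycosylation, the transcript of PIG-P fell and that of CG8026 rose, as given above. Of 4 further transcripts 1 passed, where 21.4% of all transcripts and 38.6% of the named ones passed. That of CG42497 and Tim10, a chaperone of mitochondrial import, read 14.16 to 14.31 in the L3 arrays and 14.11, 13.64, 13.73 and 13.90 at 2 h APF. It fell by 0.36, or 1.28-fold (limits -0.62 to -0.09, adjusted p = 0.049 from limma), the arrays of the stages lying 0.05 apart at the nearest, and it passed in 9 of 19 alternative fits. It did not pass with slide as a block (adjusted p = 0.12), with the 8 arrays alone (0.055), with the pooled array (0.063), without any 1 of the L3 arrays (0.075 to 0.13) or without 2 h APF array C, D or E (0.16, 0.13 and 0.067). The transcript of CG12016 and Dpm2, a subunit of dolichol phosphate mannose synthase as known from mammals, had a log2 change of -0.44 (limits -0.90 to 0.01, adjusted p = 0.17) without overlap of its arrays. That of PIG-M, the mannosyltransferase of GPI anchors, with 3 further reading frames had one of -0.26 (adjusted p = 0.068). The transcript of CG45089 and ND-MNLL, a subunit of respiratory complex I, lay at 7.17 ± 0.30 and 6.74 ± 0.32 (SD, n = 4), with overlapping arrays.

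Uba1, rdx and the transcript of lmgA and lmgB, grouped here for the ubiquitin system, did not pass. Among all transcripts 21.4% passed and among the named ones 38.6%. The group is small and was formed with the values known, so no result about it as a set is drawn. Uba1, the ubiquitin-activating enzyme, had a log2 change of -0.34 (limits -0.68 to -0.00, adjusted p = 0.15 from limma), and all its 2 h APF arrays, from 13.63 to 13.95, were below the L3 arrays, from 14.01 to 14.32. The transcript of lmgA and lmgB, the first a subunit of the anaphase-promoting complex, had one of 0.40 (limits 0.05 to 0.74, adjusted p = 0.097), also without overlap. The arrays of rdx, a Cul3 adaptor for the Hedgehog effector Ci, overlapped, from 14.86 to 14.95 in L3 and from 14.72 to 15.29 by 2 h APF.

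Of the named transcripts outside these groups, 2 passed and are given here. Those that did not pass follow in the next paragraph. Among all transcripts 21.4% passed and among the named ones 38.6%, and no result about this set is drawn. The transcript of CG30100 and CG42372 read 12.48, 12.31, 12.38 and 12.22 at L3 and 12.20, 11.28, 11.69 and 11.59 at 2 h APF. Array B lay just under the lowest L3 array, and the remaining arrays were well below. It fell by 0.67, or 1.59-fold (limits -1.04 to -0.29, adjusted p = 0.011 from limma, but 0.051 without 2 h APF array C). The transcript of CG45088 and CG6191 read 11.64 to 11.76 in the L3 arrays and 11.93 to 12.40 in those of 2 h APF, without overlap. It rose by 0.40, or 1.32-fold (limits 0.12 to 0.67, adjusted p = 0.035), a call lost with slide as a block (adjusted p = 0.13), with array medians centred (0.083), without 2 h APF array C or D (0.14 and 0.069) and without any 1 of the L3 arrays (0.058 to 0.085).

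The remaining named transcripts, none of which passed, had log2 changes between -0.42 and 0.69. The widest limits were those of CG10570 and CG42502, whose change of 0.69 (limits -0.11 to 1.49) came with L3 arrays from 11.10 to 11.20 and 2 h APF arrays from 11.25 to 12.35. Its SD between arrays was 0.05, 0.5, 0.41, 0.26, 0.98 and 0.81 from L3 to 36 h APF, and all stages entered the limits. Its L3 and 2 h APF arrays did not overlap, but those of 2 h APF spread over more than 1 log2 unit. Also without overlap were CG42488 and CG5116 (-0.42, adjusted p = 0.067 from limma), CG33995 with CG44000 and CG44001 (0.38, adjusted p = 0.053, but 0.037 and 0.040 with slide as a fixed and a random block), CG31917 with Tfb5, a subunit of the transcription and repair factor TFIIH (-0.20, adjusted p = 0.15), and CG16974 (0.28, adjusted p = 0.15). Those with the smallest changes were the transcripts of CG7071 with Muted, a subunit of the BLOC-1 complex as known from mouse, and of CG42374 with Mettl5, an rRNA methyltransferase. Both had a change of 0.00, with limits of -0.22 to 0.23 and -0.29 to 0.30. The transcripts of vnc, an N-terminal acetyltransferase (0.07), Ppcdc, an enzyme of coenzyme A synthesis (0.05), Mocs2A and Mocs2B, which make molybdopterin synthase (-0.08), CG42375 and CG9288 (-0.09), CG42306 and Gint3 (0.12) and Dyrk3, a protein kinase (0.09), had 95% limits within 0.40 of no change on the log2 scale. Their arrays overlapped, as did those of fend, an axon guidance gene (-0.31, limits -0.81 to 0.20). CG31178 (0.11), CG32573 with CG42512 (-0.08) and CG17325 with CG42305 (0.41) lay under 7 at both stages and overlapped too, at values not known to be above background.

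At the later stages the named transcripts that fell by 2 h APF differed in level. The means of NaPi-III were 10.09, 10.06, 8.52 and 7.65 at 6, 18, 24 and 36 h APF, and those of the Rad1 transcript 9.57, 9.57, 8.43 and 6.36. HDAC3 stood at 12.78, 13.44, 13.16 and 12.45, and the sle transcript at 11.08, 12.78, 11.74 and 9.96. The means of all 4 were lowest at 36 h APF, and those of HDAC3 and sle were also lower at 6 h than at 18 h APF. Those of Tgs1, Polr3K, Pbp49 and Wdr24 were lowest at 36 h APF too. Other falling transcripts were not. Those of Rpp14a (11.47), PIG-P (13.28) and Tim10 (13.52) were lowest at 6 h APF, and that of CG30100 was 11.50 at 18 h and 12.30 at 36 h APF. From 18 h APF on the tissue held no presumptive notum, so these levels include any difference between the tissues. Fatp1 stood at 11.78, 11.60, 10.99 and 13.78 at the 4 later stages. These are levels set beside the 2 h APF values, and no change between later stages was tested here.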

How the data were processed

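Total RNA of dissected wings was amplified, labelled with Cy3 and hybridized to NimbleGen 4-plex arrays. The authors quantile normalized all arrays together in NimbleScan and summarized probes by RMA (submitters' processing notes, version not given), and the deposited files hold 1 linear intensity per transcript. A deposited log2 table of the whole series, with 15469 transcripts and its L3 columns exchanged (1 with 4, 2 with 3), served as an alternative. Quantile normalization makes the distributions of arrays more alike, so a change in total RNA is not visible, and dim changes are compressed. The array medians given above still differed. The number of arrays limits the precision. The p-values weigh a change against the spread between independently obtained samples, pooled over the 6 stages.

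A model in limma 3.58.1 under R 4.3.3 was fitted to log2 intensities of 23 arrays, leaving out the pooled one (lmFit, eBayes, 1 mean per stage, contrast 2 h APF minus L3), Benjamini-Hochberg adjusted over all transcripts, without a filter. The fit was run on simulated data with known changes, the same spread at every stage and no slide effect. The arrays differ from such data, since the spread was larger at 2 h APF, so that run does not bear on the calls made here. Named were all 17 single-gene transcripts, the 27 with several reading frames (added after the data were seen), and by identifier the 2 largest rises and falls without overlap. The members and lists were chosen with earlier results of these data known. Gene lists and promoter motifs were not run, since only 44 of 15473 transcripts had names. Alternatives were the samples fitted, slide, position, moderation, a filter on dim transcripts, scaling, the log2 table, fold thresholds and each array left out. Figures used matplotlib 3.10.9.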

Additional observations from a re-analysis of the deposited data

Results flagged for a closer look

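In 5 of the 96 groups of 4 arrays tested by Dixon's criterion, which chance exceeds in about 1 of 20 groups, a single array stood apart from the other three. NaPi-III read 12.04 in L3 array 2 and 11.99 to 12 in the others. The transcript of CG42497 and Tim10 read 14.31 in L3 array 3 against 14.16 to 14.18, and that of CG12016 and Dpm2 read 11.85 in the same array against 11.58 to 11.60. The transcript of lmgA and lmgB read 12.38 in L3 array 4 against 12.73 to 12.80. SuUR read 11.94 in 2 h APF array C and 11.53 to 11.56 in the other arrays of its stage.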

How the results depend on the processing

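The count of called transcripts ranged from 2911 to 4581 over the alternative fits of all transcripts, was 2945 with the dim transcripts left out, and ranged from 2666 to 3264 when 1 array was left out. The highest count came from the fit of only the 8 arrays, where the median standard error was 0.149 in place of 0.206 and 3146 of the calls were shared. A change over 1.5-fold was also met by 2324 transcripts and one over 2-fold by 1145. With the 8 arrays alone 366 of the dimmest bin were called, and leaving out 1 array gave 10 to 17 called named transcripts. Of the 17 called named transcripts 9 passed in every one of the up to 19 alternatives and 8 lost the call in some. Of the other 27, 7 gained one in some and 20 in none. Those that gained one were LanA, SuUR (adjusted p = 0.032 with the 8 arrays, limma), Dpm2 (0.018), CG10570 with CG42502 (0.038), and the transcripts of CG42488 (0.029 with the 8 arrays), CG44000 (7 alternatives, 0.022 to 0.049) and PIG-M (6 alternatives, 0.019 to 0.039). The cause of these shifts was not tested.

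The sign changed for 7 transcripts, none called in either fit. With array medians centred the log2 change was -0.07 for Mettl5, -0.00 for vnc, -0.02 for Ppcdc and -0.07 for Muted. Under cyclic loess it was -0.01 for Mettl5 and for Muted, and with slide as a block 0.14 for His4r. Without 1 array it ranged from -0.11 to 0.24 for CG31178, from -0.17 to 0.02 for CG32573, from -0.08 to 0.05 for Mettl5, from -0.04 to 0.17 for Ppcdc, from -0.01 to 0.02 for Muted and from -0.22 to 0.09 for His4r.

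No paired analysis was possible because L3 samples carry the numbers 1 to 4 and 2 h APF samples the letters B to E, so the stages share no replicate number. The slide was used as a block instead, with 2911 transcripts called. The files give no background signal or detection call, so dim values are not known to be above background.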
